A study of Mus musculus with 9 samples.

Results

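The transcripts of microglia, the resident macrophages of the brain, and of related macrophages were followed in the striatum of mouse embryos at the embryonic stage E17.5. The genes were chosen by name, as 32 genes known to mark these cells, and all 32 were found among the 44886 genes counted in each embryo by matching Ensembl identifiers to the GENCODE M21 annotation. Of these, 27 passed the filter on low counts that 16368 genes passed in all, and the other 5 (Cd14, Runx1, Ms4a7, Pf4 and F13a1) are described by their counts. Levels are given as counts per 1000000 counts of the library (CPM) after scaling for composition between libraries, and levels of different genes are set side by side only as CPM per kilobase of annotated exon (CPM per kb).

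Per the labels, the striatum of 9 single embryos, 3 of each genotype, was dissected and its polyadenylated RNA sequenced. Ebf1, the gene studied, encodes a transcription factor made by striatal projection neurons of the direct pathway. Islet1Cre;Ebf1fl/- embryos (here Islet1Cre mutants) carried 1 floxed and 1 null allele of Ebf1 with Cre recombinase under control of Islet1, which is active in direct pathway neurons and cholinergic interneurons. Dlx5/6::Cre;Ebf1fl/- embryos (Dlx5/6::Cre mutants) carried the same Ebf1 alleles with Cre under control of Dlx5/6 elements, which act in projection neurons of both pathways and in interneurons. The controls are named only as Control in the labels and as heterozygous embryos in the study's methods, so their exact alleles, and whether they carried a Cre, are not given in the sources used here. Neither Cre is described as acting in microglia, and in both mutants the null allele was present in every cell. The labels give the strain as C57BL/6, while the methods state that the Islet1Cre line was kept on a mixed background. Both mutants were compared with the same 3 controls.

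Library totals ranged from 16548083 to 41507049 counts, the lowest of them in Islet1Cre mutant 3. Ebf1 itself was not lower in the mutants (264 to 470.2 CPM in the controls, 439 to 506 CPM in the Islet1Cre mutants and 391 to 506 CPM in the Dlx5/6::Cre mutants), so its counts do not check the genotypes. The embryo codes in the labels begin with IE for Controls 1 and 2 and the Islet1Cre mutants and with D for Control 3 and the Dlx5/6::Cre mutants. A fit with this code as a covariate compares the Dlx5/6::Cre mutants with Control 3 alone and the Islet1Cre mutants with Controls 1 and 2. The X-linked Xist and the Y-linked Ddx3y were both counted in Islet1Cre mutant 3 (242 and 19.4 CPM) and in Control 3 (400.2 and 1.98 CPM). Whether these 2 libraries each hold the RNA of 1 embryo was not tested. Control 2 had Ddx3y almost without Xist, and the other 6 libraries had Xist with at most 2 counts of Ddx3y. The part of these differences in the results below was not tested beyond the values without each library and within each code that are given beside them.

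Microglia arise from progenitors of the yolk sac that enter the brain before most neurons are born, and they depend on signals through the receptor CSF1R and on the transcription factors PU.1 and IRF8. They sense nucleotides and the neuronal chemokine fractalkine, engulf dying cells and debris, and make C1q, the protein that starts the classical complement cascade and tags material for removal. In the embryonic forebrain they are known to gather near growing axon tracts. Border-associated macrophages of the meninges, the perivascular spaces and the choroid plexus share most of these genes and are told apart by Mrc1, Pf4, F13a1 and Ms4a7.

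The microglial identity of the signal was checked on defining markers first. Cx3cr1, P2ry12, Tmem119, Siglech and Fcrls had counts in all 9 libraries, the lowest being 17 counts of Tmem119. Of the genes that tell border-associated macrophages apart, Ms4a7 had 1 count over all libraries, Pf4 had 11 and F13a1 had 29, while Mrc1 had 135, with 7 to 23 in each library. Of the monocyte and lymphocyte markers, Ccr2 had at most 2 counts in a library, Ly6c2 at most 1 and Cd3e at most 2. The genes of the list together took between 0.0124% and 0.0188% of a library's counts. In bulk RNA of this kind, fewer or more cells and less or more RNA per cell cannot be told apart.

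The summed level of the list was above the controls in each Dlx5/6::Cre mutant and overlapped them in the Islet1Cre mutants. The level summed over the 32 genes was 139.5, 139.0 and 129.5 CPM in Controls 1 to 3, 162.7, 120.6 and 134.3 CPM in Islet1Cre mutants 1 to 3, and 188.1, 186.4 and 154.8 CPM in Dlx5/6::Cre mutants 1 to 3. Embryos are given in this order throughout. The lowest Dlx5/6::Cre mutant lay above the highest control, whereas the Islet1Cre mutants lay on both sides of the controls, with embryo 1 above and embryo 2 below them. Group means were 136 ± 5.67 CPM (SD, n = 3), 139 ± 21.4 CPM and 176 ± 18.8 CPM, which is a log2 ratio to the controls of 0.03 for the Islet1Cre mutants and 0.38 for the Dlx5/6::Cre mutants. Leaving out each embryo in turn, the ratio was 0.33 to 0.46 in the Dlx5/6::Cre mutants and −0.09 to 0.13 in the Islet1Cre mutants, with −0.09 being the value without embryo 1. Without Cx3cr1, which held the most counts of the list, the 26 other tested genes summed to 83.3 ± 3.53, 89.6 ± 18.4 and 123 ± 20.3 CPM. No test was run on these sums, since the list was chosen with results of these data known.

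**Figure D1:**
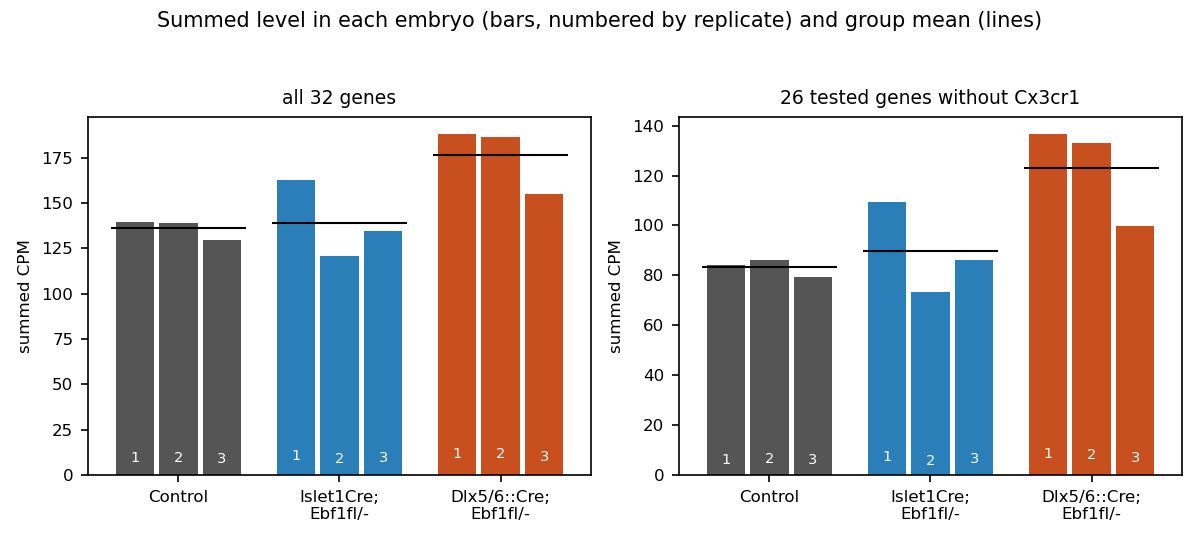
Summed level of the genes in each embryo, in CPM on the vertical axes, for all 32 genes (left) and for the 26 tested genes without Cx3cr1 (right). Bars are embryos, numbered by replicate, grouped by genotype on the horizontal axes, and lines are group means. The 3 Dlx5/6::Cre mutants sit at 154.8 to 188.1 CPM on the left, above the 129.5 to 139.5 CPM of the controls, and the Islet1Cre mutants spread from 120.6 to 162.7 CPM.

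Gene by gene, 1 of the 27 tested members passed the threshold between Dlx5/6::Cre mutants and controls (edgeR quasi-likelihood test, Benjamini-Hochberg adjusted p below 0.05 over all 16368 genes), against 2.39% of all genes tested. This was Fcrls, which rose, and 0 fell (1.05% of all genes rose and 1.34% fell). The log2 fold change was above 0 for 24 of the 27, against 52.3% of all genes, with a median of 0.53 against 0.01 over all genes tested. In 12 of the 27 all 3 mutants lay above all 3 controls, a pattern that 9.71% of all genes showed, and in 0 of the 27 did they lie below, which 11.2% of all genes did. Mrc1, counted among these 12 and among the 24 above 0, reached the filter level in 1 control and in all 3 embryos of each mutant genotype. It passed the filter through the mutants, so its place in these counts is not support. At an unadjusted p below 0.05, 11 members were higher, against 7.91% of all genes, and 0 were lower, against 7.62%.

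Between Islet1Cre mutants and controls 0 of the 27 passed in the edgeR quasi-likelihood test, against 0.971% of all genes tested (0.47% higher and 0.501% lower). The DESeq2 Wald test, run on all 32 members, called 0. At an unadjusted p below 0.05, 0 members were higher (3.97% of all genes) and 1, Tmem119, was lower (3.96% of all genes). The log2 fold change was above 0 for 14 of the 27, against 49.5% of all genes, and the median was 0.05. In 1 member, Fcrls, the 3 mutants lay above the controls (7.76% of all genes), and in 1 member, Tmem119, they lay below (7.45% of all genes).

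Set against each other, the Dlx5/6::Cre and the Islet1Cre mutants differed in 0 of the 27 members and in 0.0% of all genes by the edgeR quasi-likelihood test. The DESeq2 Wald test called 0 of 32 members and 18 of 26563 genes. At an unadjusted p below 0.05, 8 members were higher in the Dlx5/6::Cre mutants, against 2.41% of all genes, and 0 were lower, against 2.74%. The median log2 difference was 0.47, and 24 of the 27 were above 0, against 53.3% of all genes. All 3 Dlx5/6::Cre mutants lay above all 3 Islet1Cre mutants in 7 members (Fcrls, Tmem119, Trem2, Fcer1g, Itgam, Cd53 and Spi1), a pattern that 5.14% of all genes showed. By either test, no member thus separated the mutants past the threshold.

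**Figure D2:**
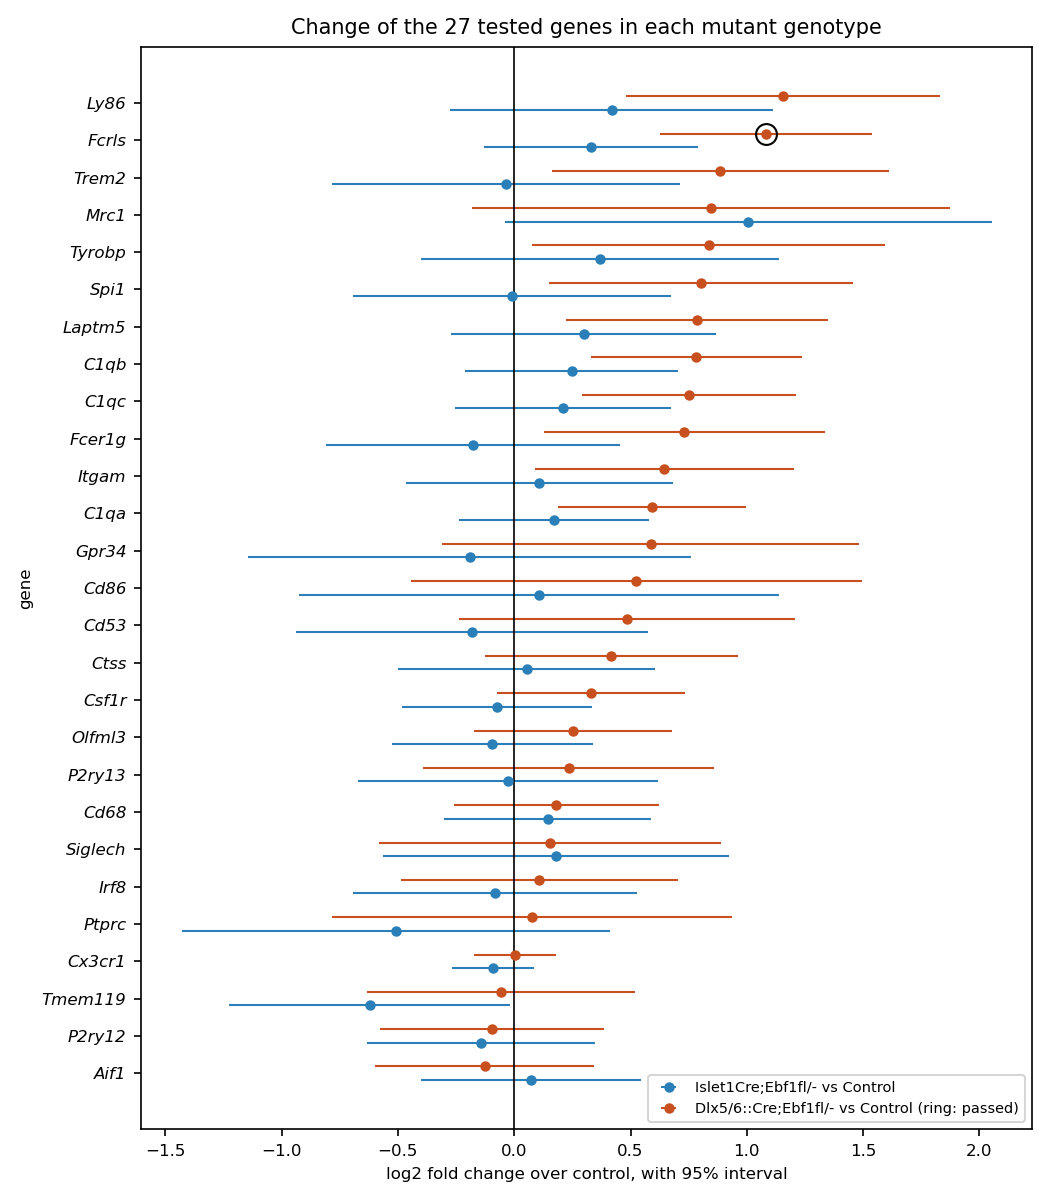
Log2 fold change of each tested member against the controls (horizontal axis, bars are 95% confidence intervals from the edgeR fit), for the Islet1Cre mutants and the Dlx5/6::Cre mutants. Most genes of the Dlx5/6::Cre mutants lie to the right of 0, with a median of 0.53, and those of the Islet1Cre mutants lie around 0, with a median of 0.05. Fcrls, at 1.08 in the Dlx5/6::Cre mutants, is the gene that passed the threshold.

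Surface and secreted genes of resting microglia formed the largest group, with 9 genes. In the controls Cx3cr1, the receptor for fractalkine, was the highest of the 32 genes at 11.6 CPM per kb, followed by Fcrls in its group at 2.55 CPM per kb and the growth factor receptor gene Csf1r at 2.21 CPM per kb. The lowest of the group were P2ry13, a nucleotide receptor, at 0.451 CPM per kb and Siglech, a sialic acid binding lectin, at 0.424 CPM per kb. Of the 9 genes of this group, 1 passed in the Dlx5/6::Cre mutants (2.39% of all genes) and 0 in the Islet1Cre mutants (0.971%), with median log2 fold changes of 0.23 and −0.09.

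Fcrls, an Fc receptor-like scavenger receptor that in the mouse brain marks microglia (ENSMUSG00000015852, GRCm38 chr3:87250758-87263738, minus strand), was at 6.07, 5.76 and 6.06 CPM in the controls. It stood at 9.51, 6.29 and 6.72 CPM in the Islet1Cre mutants and at 13.3, 15.1 and 9.54 CPM in the Dlx5/6::Cre mutants. The groups did not overlap between controls and either mutant, nor between the mutants, where the lowest Dlx5/6::Cre mutant lay just above the highest Islet1Cre mutant. Behind these values stood 113 to 499 counts per library. Fcrls rose 2.12-fold in the Dlx5/6::Cre mutants (log2 fold change 1.08, SE 0.21, 95% interval 0.63 to 1.54, adjusted p = 0.0240 by the edgeR quasi-likelihood test). The Islet1Cre mutants had a value of 0.33 on the same scale (95% bounds −0.13 and 0.79, adjusted p = 0.874), and the difference between the mutants was 0.75 (interval 0.30 to 1.21, adjusted p = 0.868). The size of the rise was 0.93 to 1.24 over all alternatives, but the call was lost with the embryo code as a covariate (adjusted p = 0.366) and without Control 1 (0.0913), Control 2 (0.0778), Control 3 (0.0839) or Dlx5/6::Cre mutant 2 (0.0835).

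Cx3cr1 (ENSMUSG00000052336, GRCm38 chr9:119901616-120069879, minus strand) had the lowest coefficient of variation of the tested members. It was at 54.9, 52.3 and 49.3 CPM in the controls, 52.7, 47.0 and 47.4 CPM in the Islet1Cre mutants and 49.9, 52.4 and 54.6 CPM in the Dlx5/6::Cre mutants. The 3 groups overlapped throughout. The annotated span of Cx3cr1 also holds Gorasp1 on its own strand and Wdr48 on the opposite strand, with 0 shared exon bases. Whether reads of these genes were counted to Cx3cr1 was not tested. Over the 9 embryos its coefficient of variation was 5.70%, of which counting error alone would give 2.497%, whereas the other tested members ranged from 12.2% (Aif1) to 48.0% (Mrc1). The log2 fold change was 0.00 in the Dlx5/6::Cre mutants (95% bounds −0.17 and 0.18, adjusted p = 0.988) and −0.09 in the Islet1Cre mutants (bounds −0.27 and 0.09, adjusted p = 0.971).

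Tmem119, a transmembrane protein taken as a marker of microglia against other macrophages, had the most negative log2 fold change of the tested members in the Islet1Cre mutants. It was at 1.26, 1.38 and 1.79 CPM in the controls, 0.987, 0.891 and 1.01 CPM in the Islet1Cre mutants and 1.72, 1.06 and 1.48 CPM in the Dlx5/6::Cre mutants. The Islet1Cre mutants lay below both other groups, though with 17 to 56 counts behind each value. The log2 fold change was −0.62 (SE 0.27, interval −1.23 to −0.02, adjusted p = 0.601) in these mutants and −0.06 (interval −0.63 to 0.52) in the Dlx5/6::Cre mutants.

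The other genes of the group overlapped between all groups. P2ry13 was at 1.05, 1.57 and 0.797 CPM in the controls, 1.17, 1.08 and 1.13 CPM in the Islet1Cre mutants and 1.15, 1.51 and 1.37 CPM in the Dlx5/6::Cre mutants. Siglech was at 1.71, 1.54 and 1.05 CPM, 1.93, 1.43 and 1.55 CPM, and 1.97, 1.96 and 0.889 CPM in the same order. The lowest value was in Control 3 for P2ry13 and in Dlx5/6::Cre mutant 3 for Siglech. Csf1r ranged from 10.4 to 18.9 CPM over the 9 embryos, with a log2 fold change of 0.33 in the Dlx5/6::Cre mutants (interval −0.07 to 0.73), and 15.1% of its exon bases are shared with Hmgxb3 on the opposite strand. P2ry12, the ADP receptor that steers microglial processes, ranged from 2.58 to 4.13 CPM, and its log2 fold change was −0.09 in the Dlx5/6::Cre mutants (interval −0.58 to 0.39). Gpr34, a receptor for lysophosphatidylserine, ranged from 0.352 to 1.72 CPM and Olfml3, a secreted matrix protein, from 5.56 to 9.83 CPM. The highest value of both was in a Dlx5/6::Cre mutant and the lowest in Islet1Cre mutant 2.

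The 3 chains of C1q, encoded side by side on chromosome 4, moved together across embryos. C1qa was at 5.08, 5.57 and 5.52 CPM in the controls, 7.31, 4.83 and 6.13 CPM in the Islet1Cre mutants and 9.004, 8.33 and 7.06 CPM in the Dlx5/6::Cre mutants. C1qb was at 6.68, 6.35 and 6.15 CPM, then 9.02, 5.396 and 8.504 CPM, then 11.98, 12.11 and 8.95 CPM. C1qc was at 6.98, 6.59 and 5.96 CPM, then 9.82, 5.51 and 7.37 CPM, then 11.8, 11.9 and 9.21 CPM. For each chain all 3 Dlx5/6::Cre mutants lay above all 3 controls (9.71% of all genes). Islet1Cre mutant 1 reached into the range of the Dlx5/6::Cre mutants while Islet1Cre mutant 2 was the lowest of the 9 embryos.

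None of the chains passed the threshold in the edgeR quasi-likelihood test. In the Dlx5/6::Cre mutants the log2 fold change was 0.59 for C1qa (SE 0.18, adjusted p = 0.142), 0.78 for C1qb (SE 0.21, adjusted p = 0.0858) and 0.75 for C1qc (SE 0.21, adjusted p = 0.102). By the DESeq2 Wald test all 3 chains passed (adjusted p = 0.0425, 0.00695 and 0.0125). In the Islet1Cre mutants the values were 0.17, 0.25 and 0.21, each with an interval that spanned 0. Per kilobase, the ratio of C1qb to C1qa stayed between 1.07 and 1.39 in the 9 embryos and that of C1qc to C1qa between 0.582 and 0.767. The summed level of the chains was 18.3 ± 0.583 CPM (SD, n = 3) in the controls, 21.3 ± 5.24 CPM in the Islet1Cre mutants and 30.1 ± 4.25 CPM in the Dlx5/6::Cre mutants.

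**Figure D3:**
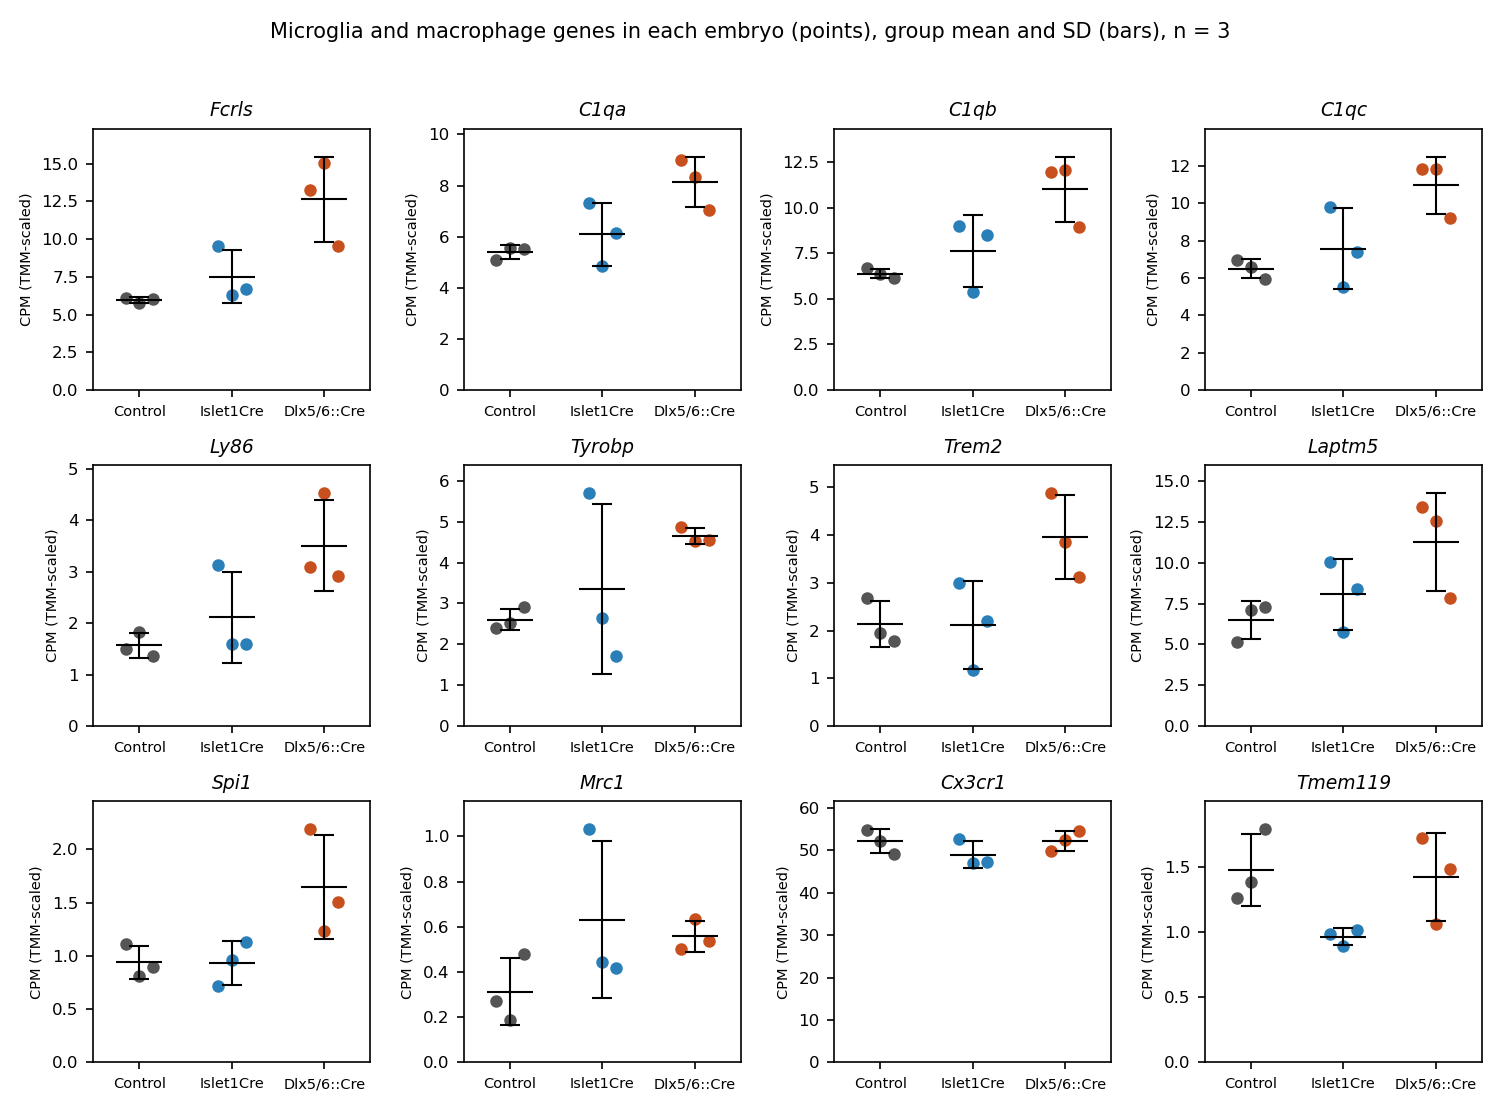
Level of single genes in each embryo (points, CPM on the vertical axes) with the group mean and SD (bars, n = 3), by genotype on the horizontal axes. Fcrls does not overlap between groups (5.76 to 6.07 CPM in the controls and 9.54 to 15.1 CPM in the Dlx5/6::Cre mutants), whereas Cx3cr1 holds between 47.0 and 54.9 CPM in all 9 embryos.

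The sequence before the transcription start is shown for the member that passed the threshold, for the 2 C1q chains held in the reference table, for Trem2 and Laptm5, which lay above the controls in all 3 Dlx5/6::Cre mutants, and for Cx3cr1, which did not. Each window runs from 250 bases before to 50 bases after the RefSeq start on GRCm38.p6, 5′ to 3′ on the gene's own strand. Capitals mark the letters GAGGAAG, or CTTCCTC where the match is on the opposite strand, a core sequence of the kind bound by PU.1.
Fcrls, chr3:87263475-87263774, minus strand: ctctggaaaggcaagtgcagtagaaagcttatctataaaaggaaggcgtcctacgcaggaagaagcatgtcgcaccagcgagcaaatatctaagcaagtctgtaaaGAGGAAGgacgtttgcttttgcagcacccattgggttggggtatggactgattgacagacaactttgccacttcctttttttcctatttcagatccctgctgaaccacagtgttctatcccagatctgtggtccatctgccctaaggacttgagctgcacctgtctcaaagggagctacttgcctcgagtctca
C1qb, chr4:136886151-136886450, minus strand: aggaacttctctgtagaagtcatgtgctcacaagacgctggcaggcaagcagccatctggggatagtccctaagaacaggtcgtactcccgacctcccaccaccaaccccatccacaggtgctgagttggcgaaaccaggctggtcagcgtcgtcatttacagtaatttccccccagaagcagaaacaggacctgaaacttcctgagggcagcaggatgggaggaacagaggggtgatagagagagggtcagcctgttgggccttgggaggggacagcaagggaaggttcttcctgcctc
C1qc, chr4:136892865-136893164, minus strand: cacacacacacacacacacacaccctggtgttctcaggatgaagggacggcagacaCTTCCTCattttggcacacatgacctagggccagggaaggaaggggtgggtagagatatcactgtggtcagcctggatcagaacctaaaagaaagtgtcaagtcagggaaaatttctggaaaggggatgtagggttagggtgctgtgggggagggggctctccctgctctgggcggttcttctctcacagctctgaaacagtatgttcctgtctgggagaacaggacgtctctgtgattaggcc
Trem2, chr17:48346151-48346450, plus strand: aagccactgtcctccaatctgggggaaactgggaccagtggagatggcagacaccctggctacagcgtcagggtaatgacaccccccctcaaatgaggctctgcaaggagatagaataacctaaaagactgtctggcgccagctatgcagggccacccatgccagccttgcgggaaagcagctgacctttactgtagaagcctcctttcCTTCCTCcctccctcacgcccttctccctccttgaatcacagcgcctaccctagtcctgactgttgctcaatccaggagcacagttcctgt
Laptm5, chr4:130913066-130913365, plus strand: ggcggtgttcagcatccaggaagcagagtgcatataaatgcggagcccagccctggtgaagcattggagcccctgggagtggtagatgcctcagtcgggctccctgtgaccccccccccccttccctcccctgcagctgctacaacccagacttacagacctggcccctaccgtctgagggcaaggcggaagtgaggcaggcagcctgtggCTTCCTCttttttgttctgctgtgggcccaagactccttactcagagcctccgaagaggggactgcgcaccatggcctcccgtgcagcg
Cx3cr1, chr9:120068247-120068546, minus strand: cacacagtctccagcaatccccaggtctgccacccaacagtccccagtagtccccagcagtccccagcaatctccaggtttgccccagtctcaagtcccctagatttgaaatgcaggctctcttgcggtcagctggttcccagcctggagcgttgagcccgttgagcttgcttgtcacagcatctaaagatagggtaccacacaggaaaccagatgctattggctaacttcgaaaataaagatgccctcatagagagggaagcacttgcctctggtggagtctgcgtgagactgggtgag

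The match began 144 bases before the start in Fcrls, 194 bases before it in C1qc, 41 in Trem2 and 39 in Laptm5, and the windows of C1qb and Cx3cr1 held none. The letters were also held by Itgam and Mrc1, which lay above the controls in the Dlx5/6::Cre mutants, and by P2ry13, Ctss and Cd53, which overlapped them, while the windows of Ly86 and Fcer1g, which lay above, held none. RefSeq windows were held for 24 of the 32 genes, 29 windows in all, and 12 of the 29 (41.4%), belonging to 11 genes, held GAGGAAG on either strand, against 13.6% of all 32851 windows of this length in the table. The composite ETS-IRF element (EICE) that PU.1 binds together with IRF8 was found, on either strand, in 1 of the 29 windows (3.45%, Cd68) and in 2.72% of all windows. These matches describe the letters in the windows, and binding was not measured.

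Innate receptors and their adaptors had the largest median in the Dlx5/6::Cre mutants of the groups with more than 1 tested gene. Of the 6 genes 5 were tested and 0 passed in either mutant in the edgeR quasi-likelihood test. In the Dlx5/6::Cre mutants 4 were higher at an unadjusted p below 0.05 (7.91% of all genes), and in the Islet1Cre mutants 0 (3.97%). The DESeq2 Wald test called 1, Ly86, in the Dlx5/6::Cre mutants. The median log2 fold change was 0.84 in the Dlx5/6::Cre mutants and 0.11 in the Islet1Cre mutants. Tyrobp, the adaptor DAP12 that carries signals of TREM2, was the highest of the group in the controls at 3.91 CPM per kb, and Fcer1g, the shared signalling chain of Fc receptors, was at 1.57 CPM per kb.

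Tyrobp was at 2.41, 2.51 and 2.90 CPM in the controls, 5.70, 2.65 and 1.72 CPM in the Islet1Cre mutants and 4.88, 4.53 and 4.55 CPM in the Dlx5/6::Cre mutants. The highest and the lowest of the 9 embryos were both Islet1Cre mutants. Its log2 fold change was 0.84 (SE 0.34, adjusted p = 0.275) in the Dlx5/6::Cre mutants. Trem2, the lipid receptor that pairs with it, was at 2.68, 1.95 and 1.79 CPM, then 3.01, 1.17 and 2.20 CPM, then 4.88, 3.87 and 3.13 CPM. The Dlx5/6::Cre mutants lay above the controls and, by a narrow gap, above the Islet1Cre mutants, with a log2 fold change against the controls of 0.89 (SE 0.33, adjusted p = 0.224). Fcer1g was at 1.56, 1.24 and 1.31 CPM, then 1.66, 0.985 and 1.01 CPM, then 2.26, 2.78 and 1.81 CPM. It too lay above both other groups in the Dlx5/6::Cre mutants, with a log2 fold change against the controls of 0.73 (SE 0.27, adjusted p = 0.228).

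Ly86, the MD-1 protein that accompanies the receptor RP105, was at 1.503, 1.84 and 1.37 CPM in the controls, 3.14, 1.60 and 1.61 CPM in the Islet1Cre mutants and 3.09, 4.53 and 2.91 CPM in the Dlx5/6::Cre mutants. All Dlx5/6::Cre mutants lay above the controls, and Islet1Cre mutant 1 lay among them. Its log2 fold change of 1.15 (SE 0.31, interval 0.48 to 1.83) in the Dlx5/6::Cre mutants was the largest of the 27 and missed the threshold (adjusted p = 0.0889), while that in the Islet1Cre mutants was 0.42 (interval −0.27 to 1.11). Cd86, a costimulatory ligand, was at 0.752, 0.324 and 0.574 CPM, then 0.628, 0.305 and 0.951 CPM, then 0.789, 0.936 and 0.647 CPM, and the groups overlapped. Cd14, a coreceptor for lipopolysaccharide, had 6, 4 and 9 counts in the controls, 4, 6 and 5 in the Islet1Cre mutants and 12, 18 and 5 in the Dlx5/6::Cre mutants and was not tested.

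Among the 7 leukocyte and lysosomal genes 0 passed in either mutant in the edgeR quasi-likelihood test, and the DESeq2 Wald test called 1, Laptm5, in the Dlx5/6::Cre mutants. At an unadjusted p below 0.05, 2 were higher in the Dlx5/6::Cre mutants (7.91% of all genes) and 0 in the Islet1Cre mutants (3.97%). The median log2 fold change was 0.42 in the Dlx5/6::Cre mutants and 0.07 in the Islet1Cre mutants. Ctss, which encodes the protease cathepsin S, led the group in the controls at 3.86 CPM per kb, ahead of Cd68, a lysosomal membrane glycoprotein, at 2.66 CPM per kb, and Ptprc, which encodes the leukocyte antigen CD45, was the lowest at 0.0309 CPM per kb.

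Laptm5, a lysosomal membrane protein of blood cells, was at 5.17, 7.11 and 7.27 CPM in the controls, 10.05, 5.75 and 8.38 CPM in the Islet1Cre mutants and 13.4, 12.6 and 7.81 CPM in the Dlx5/6::Cre mutants. The Dlx5/6::Cre mutants lay above the controls, embryo 3 by little, and overlapped the Islet1Cre mutants. The log2 fold change was 0.79 (SE 0.26, adjusted p = 0.167). Itgam, which encodes the CD11b chain of complement receptor 3, was at 1.92, 2.16 and 1.43 CPM, then 1.93, 2.11 and 1.90 CPM, then 3.84, 2.54 and 2.32 CPM. Its Dlx5/6::Cre mutants lay above both other groups, with a log2 fold change against the controls of 0.65 (SE 0.25, adjusted p = 0.247), and 68.7% of its exon bases are shared with the annotated gene Gm49368, which has no row in the counts.

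Ctss was at 5.20, 6.49 and 4.05 CPM in the controls, 6.77, 4.08 and 5.59 CPM in the Islet1Cre mutants and 8.47, 7.07 and 5.55 CPM in the Dlx5/6::Cre mutants. Cd68 was at 3.37, 2.84 and 3.83 CPM, then 3.27, 4.29 and 3.45 CPM, then 4.20, 3.87 and 3.31 CPM. Both overlapped between the groups. Ptprc was at 0.481, 0.676 and 0.542 CPM, then 0.583, 0.399 and 0.178 CPM, then 0.466, 0.785 and 0.539 CPM, with 3 counts behind the lowest value. Aif1, the actin-binding protein IBA1 widely used to stain microglia, ranged from 1.67 to 2.38 CPM, and its log2 fold change was −0.13 in the Dlx5/6::Cre mutants (interval −0.60 to 0.34). Cd53, a tetraspanin of leukocytes, ranged from 0.476 to 1.63 CPM and did not overlap between the 2 mutants.

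**Figure D4:**
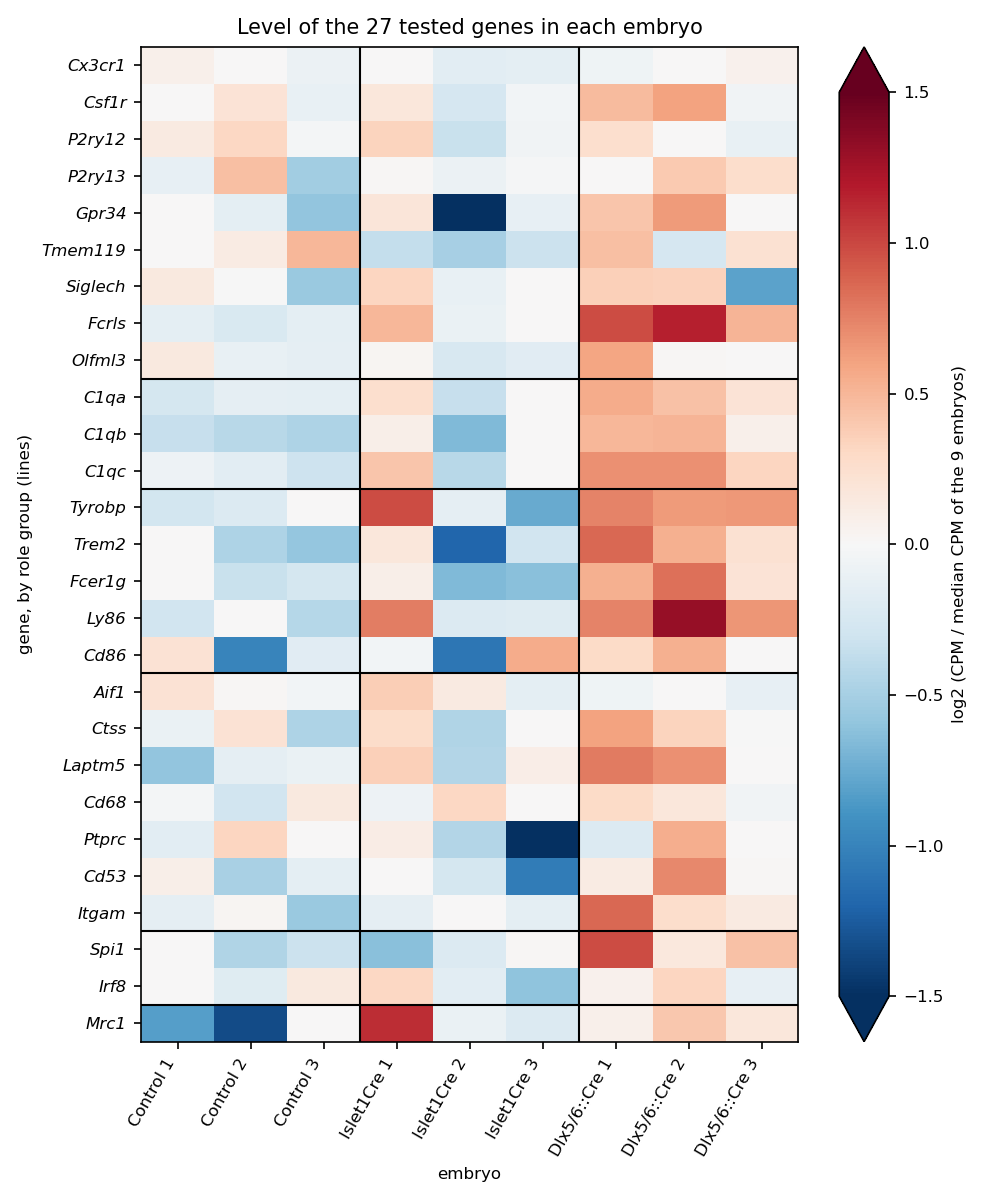
Each tested member in each embryo as the log2 ratio to the median of the 9 embryos (colour scale, clipped at its ends), with members in rows and embryos in columns. Dlx5/6::Cre mutants 1 and 2 and Islet1Cre mutant 1 stand above the median in 23, 24 and 21 of the 27 genes, and Islet1Cre mutants 2 and 3 in 2 and 3.

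Of the 3 myeloid transcription factors 2 were tested and 0 passed in the edgeR quasi-likelihood test or the DESeq2 Wald test. Spi1, which encodes PU.1, was at 1.11, 0.811 and 0.893 CPM in the controls, 0.718, 0.962 and 1.13 CPM in the Islet1Cre mutants and 2.19, 1.24 and 1.51 CPM in the Dlx5/6::Cre mutants. The Dlx5/6::Cre mutants lay above both other groups, with log2 differences of 0.80 from the controls (SE 0.30, adjusted p = 0.221) and 0.81 from the Islet1Cre mutants (SE 0.30, adjusted p = 0.868). Irf8, the partner of PU.1, was at 1.44, 1.27 and 1.59 CPM, then 1.79, 1.29 and 0.951 CPM, then 1.51, 1.81 and 1.32 CPM, and the groups overlapped (log2 fold change 0.11 in the Dlx5/6::Cre mutants, interval −0.49 to 0.70). Runx1, a factor of blood progenitors and early microglia, had 4, 11 and 14 counts, 6, 10 and 5 counts, and 8, 8 and 5 counts in the 3 groups.

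Of the genes of border-associated macrophages 3 of 4 were below the filter on low counts. Mrc1 passed it through the mutants, with 1 control and all 3 embryos of each mutant genotype at the filter level. Mrc1, the mannose receptor, was the 1 tested gene of 4, at 0.271, 0.189 and 0.478 CPM in the controls, 1.03, 0.446 and 0.416 CPM in the Islet1Cre mutants and 0.502, 0.634 and 0.539 CPM in the Dlx5/6::Cre mutants, with 7 to 23 counts behind each value. The Dlx5/6::Cre mutants lay above the controls (log2 fold change 0.85, interval −0.18 to 1.88, adjusted p = 0.406) and Islet1Cre mutant 1 was the highest embryo (1.01 for its group, interval −0.04 to 2.05, adjusted p = 0.670). Pf4, the chemokine platelet factor 4, had 0, 1 and 0 counts in the controls, 0, 1 and 1 in the Islet1Cre mutants and 5, 1 and 2 in the Dlx5/6::Cre mutants. F13a1, a coagulation factor subunit, had 1, 2 and 2 counts, then 0, 1 and 3, then 17, 2 and 1. Dlx5/6::Cre mutant 1 thus held 17 of the 29 counts of F13a1 and 5 of the 11 of Pf4. Ms4a7, a membrane protein of macrophages, had its 1 count in Control 3.

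Single embryos differed within the groups. Dlx5/6::Cre mutant 2 held the highest of the 9 values in 10 of the 27 tested genes and Dlx5/6::Cre mutant 1 in 8, whereas Dlx5/6::Cre mutant 3 held it in 0 and was above the median in 15. Islet1Cre mutant 2 had the lowest value in 12 genes, and Islet1Cre mutant 1 the highest in 4. Within embryos whose code begins with D, Control 3 was the only control, and it held counts of both Xist and Ddx3y. The Dlx5/6::Cre mutants had a mean above that of Control 3 in 23 of the 27 genes, with a median log2 ratio of 0.61. Within the code IE, the 3 Islet1Cre mutants had a mean above that of Controls 1 and 2 in 12 of the 27, with a median of −0.04. The share of all genes was computed for neither code. In the fit over all embryos with the code as a covariate, 0 of the 27 passed in the Dlx5/6::Cre mutants, with a median of 0.60.

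Other genes of microglia and of their neighbours were taken from 11 further lists of 150 entries, of which 148 had counts. Of 34 other microglia genes 33 were tested, and in the Dlx5/6::Cre mutants 1 rose and 1 fell (1.05% and 1.34% of all genes). The log2 fold change was above 0 in 28 of the 33, against 52.3% of all genes, with a median of 0.36. The DESeq2 Wald test called these 2, Lyz2 and Ikzf1, and also Adgre1 and Hpgds. Lyz2, which encodes lysozyme, the bacteriolytic enzyme of myeloid cells, was at 0.872, 1.00 and 0.670 CPM in the controls, 2.24, 1.5 and 1.37 CPM in the Islet1Cre mutants and 4.05, 3.20 and 2.91 CPM in the Dlx5/6::Cre mutants. The 3 groups did not overlap, and Lyz2 rose in the Dlx5/6::Cre mutants by 1.99 on the log2 scale (SE 0.27, adjusted p = 0.00447 by the edgeR quasi-likelihood test), a call kept without each of the 9 embryos in turn and lost with the embryo code as a covariate (adjusted p = 0.0886). In the Islet1Cre mutants its log2 fold change was 1.00 (adjusted p = 0.188).

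Ikzf1, which encodes Ikaros, a factor of leukocytes that differentiating striatal neurons also make, fell in both mutants. It was at 203, 116 and 131 CPM in the controls, 62.1, 64.5 and 81.4 CPM in the Islet1Cre mutants and 69.9, 72.5 and 66.6 CPM in the Dlx5/6::Cre mutants, so that every mutant lay below every control. The log2 fold change was −1.12 in the Islet1Cre mutants (adjusted p = 0.0229, edgeR quasi-likelihood test) and −1.11 in the Dlx5/6::Cre mutants (adjusted p = 0.0122). The call was lost without Islet1Cre mutant 1 (0.135) or 2 (0.148) in the first, and without Dlx5/6::Cre mutant 3 (0.0508) or with the embryo code as a covariate (0.266) in the second.

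Genes of activated and axon-tract microglia were represented by 13 tested genes of 16. In the Dlx5/6::Cre mutants 12 of the 13 had a log2 fold change above 0 (52.3% of all genes), with a median of 0.41, and 1 passed (2.39% of all genes). Spp1, which encodes the secreted phosphoprotein osteopontin, was at 0.962, 1.03 and 0.319 CPM in the controls, 7.67, 1.60 and 3.33 CPM in the Islet1Cre mutants and 5.49, 16.1 and 5.55 CPM in the Dlx5/6::Cre mutants. Every mutant of either genotype lay above every control. Spp1 rose in the Dlx5/6::Cre mutants by 3.54 on the log2 scale (SE 0.67, adjusted p = 0.0230), and in the Islet1Cre mutants its log2 fold change was 2.41 (adjusted p = 0.178, or 0.00724 where low counts were not filtered). The call in the Dlx5/6::Cre mutants was lost with the embryo code as a covariate (adjusted p = 0.186) and without Control 1 (0.0947), Control 2 (0.0584), Control 3 (0.0849) or Dlx5/6::Cre mutant 2 (0.0532). Gpnmb, chosen here after its values were seen, had 1 to 3 counts in the controls, 3 to 14 in the Islet1Cre mutants and 14 to 38 in the Dlx5/6::Cre mutants. The controls lay below the filter's minimum count of 10, so Gpnmb was tested only through the mutants. Its place among the 12 of 13 above 0 is thus not support. Its log2 fold change of 3.47 in the Dlx5/6::Cre mutants missed the threshold (adjusted p = 0.0516 by the edgeR quasi-likelihood test). The DESeq2 Wald test called 3 of the list in these mutants, Spp1, Gpnmb and Ctsd, and 0 in the Islet1Cre mutants.

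Of 20 ligands and partners of microglial receptors 18 were tested. By the edgeR quasi-likelihood test 0 rose and 2 fell in the Dlx5/6::Cre mutants (1.05% and 1.34% of all genes), with a median of 0.04. At an unadjusted p below 0.05, 3 were higher and 4 lower (7.91% and 7.62% of all genes). The DESeq2 Wald test called 4 in these mutants, Tgfb2 and Nrros and also Apoe and Gas6, whose log2 fold changes were 0.76 and −0.49 (adjusted p = 0.0851 and 0.110 by edgeR). Tgfb2, a transforming growth factor β made by neurons and glia, was at 22.9, 15 and 18.8 CPM in the controls, 6.55, 8.07 and 10.2 CPM in the Islet1Cre mutants and 5.09, 7.82 and 6.49 CPM in the Dlx5/6::Cre mutants. All mutants lay below all controls, and Tgfb2 fell by 1.54 on the log2 scale in the Dlx5/6::Cre mutants (adjusted p = 0.00536) and by 1.19 in the Islet1Cre mutants (adjusted p = 0.0352). The first call was kept without each embryo in turn and lost with the embryo code as a covariate (adjusted p = 0.0991). The second was lost with that covariate (0.101) and without Control 1 (0.146), Control 3 (0.120), Dlx5/6::Cre mutant 3 (0.0580), Islet1Cre mutant 1 (0.165) or Islet1Cre mutant 2 (0.188). Nrros, which encodes a microglial anchor of latent TGF-β1, was at 8.06, 6.68 and 7.56 CPM, then 5.79, 5.56 and 5.83 CPM, then 5.13, 4.26 and 4.01 CPM. It fell in the Dlx5/6::Cre mutants by 0.74 on the log2 scale (adjusted p = 0.0405), a call kept without Dlx5/6::Cre mutant 1 and lost without each of the other 8 embryos (0.0647 to 0.139) with the embryo code as a covariate (0.366) and with the 6 samples of the comparison alone (0.120), and was at −0.38 in the Islet1Cre mutants (adjusted p = 0.574).

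**Figure D5:**
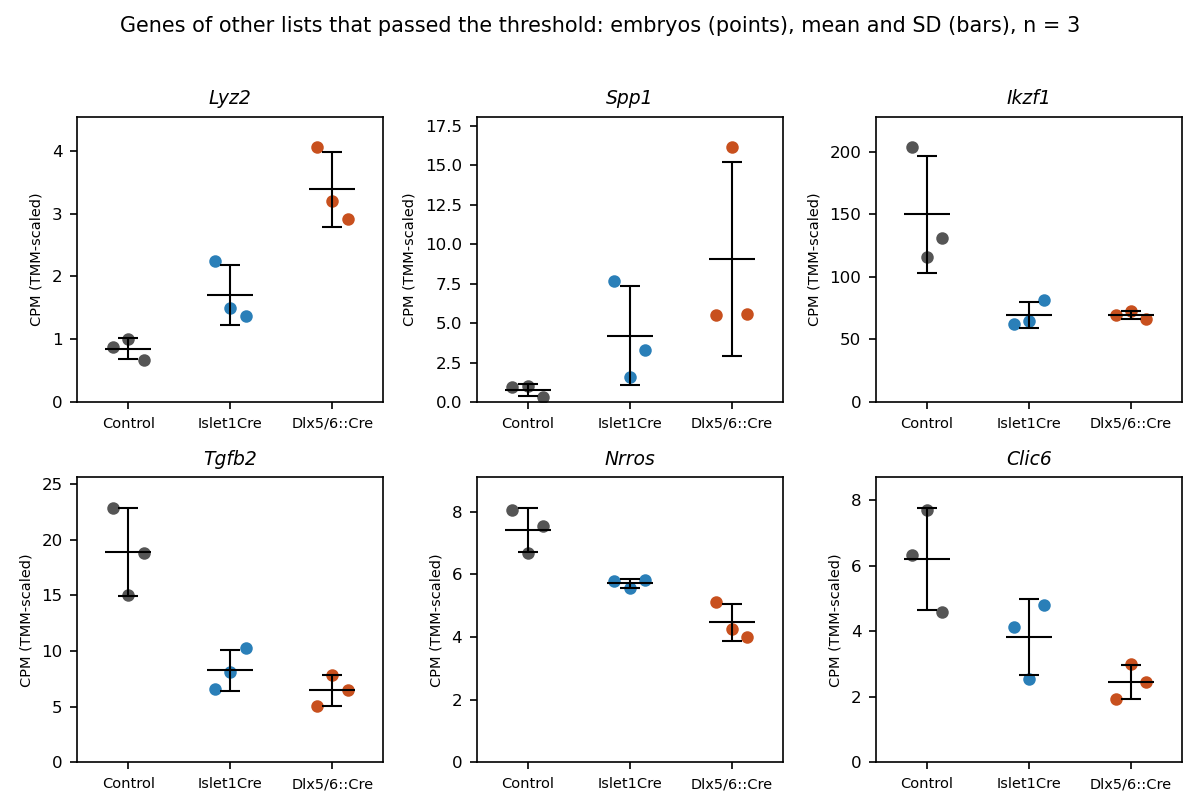
Genes of the other lists that passed the threshold, in each embryo (points, CPM on the vertical axes) with the group mean and SD (bars, n = 3), by genotype on the horizontal axes. Lyz2 and Spp1 are higher and Ikzf1, Tgfb2, Nrros and Clic6 lower in the Dlx5/6::Cre mutants, as with Lyz2 at 0.670 to 1.00 CPM in the controls and 2.91 to 4.05 CPM in these mutants.

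Markers of neighbouring tissues were read beside these values. Clic6, a chloride channel of the choroid plexus, was at 6.34, 7.70 and 4.59 CPM in the controls, 4.13, 2.53 and 4.82 CPM in the Islet1Cre mutants and 1.94, 2.99 and 2.45 CPM in the Dlx5/6::Cre mutants, where it fell by 1.33 on the log2 scale (adjusted p = 0.0370). It was 1 of 2 tested genes of 5 choroid plexus markers, and the call was lost with the embryo code as a covariate (adjusted p = 0.623), with the 6 samples of the comparison alone (0.0661), and without Control 1 (0.124), Control 2 (0.123), Dlx5/6::Cre mutant 2 (0.0642), Dlx5/6::Cre mutant 3 (0.112) or Islet1Cre mutant 1 (0.0648). The striatal neuron marker Foxp1 fell by 0.53 on the log2 scale in the Dlx5/6::Cre mutants (adjusted p = 0.0305 by the edgeR quasi-likelihood test), as 1 of 7 (1.34% of all genes fell). The call was lost without 7 of the 9 embryos (0.0510 to 0.134), with the embryo code as a covariate and with only the 6 samples of the comparison (0.0942). The 5 fibroblast markers, led by Col1a2 and Col3a1, summed to 4.0 to 7.61 CPM in the controls, 4.64 to 7.90 CPM in the Islet1Cre mutants and 5.496 to 10.1 CPM in the Dlx5/6::Cre mutants, and the 4 tested were above 0 in the last, with a median of 0.44 and a smallest adjusted p of 0.458. The 9 endothelial and mural markers, led by Rgs5 and Cldn5, summed to 207 to 268, 209 to 219 and 195 to 243 CPM. Rgs5 had a log2 fold change of −0.35 in the Dlx5/6::Cre mutants, below every control, and missed the threshold with edgeR (adjusted p = 0.0763) while the DESeq2 Wald test called it. The 8 red blood cell markers, led by Hbb-bs and Hba-a1, summed to 302 to 568, 267 to 399 and 299 to 367 CPM. The part of the fibroblast and choroid plexus markers in the results was not tested.

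The 16 markers of monocytes, neutrophils and lymphocytes, led by S100a9 and S100a8, summed to 0.574 to 1.30 CPM in the controls, 0.714 to 0.985 CPM in the Islet1Cre mutants and 0.287 to 0.835 CPM in the Dlx5/6::Cre mutants, and 0 of them reached the filter. In the Dlx5/6::Cre mutants Ccr2 and Ly6c2 had 0 counts. The 12 other genes of border macrophages summed to 11.1 to 13.7 CPM in the controls, 12.7 to 13.3 CPM in the Islet1Cre mutants and 12.9 to 15.9 CPM in the Dlx5/6::Cre mutants. Of these 3 were tested, and Stab1 and Dab2, the highest (0.677 and 0.618 CPM per kb in the controls), had log2 fold changes of 0.15 and 0.23 in the Dlx5/6::Cre mutants, with 0 of the 3 passing by the edgeR quasi-likelihood test and 0 at an unadjusted p below 0.05. Lyve1 and Cbr2, which mark such macrophages, had 0 counts in all 3 Dlx5/6::Cre mutants, while the 12 genes summed to a mean of 14.3 CPM there and 12.5 CPM in the controls. Mrc1, Pf4 and F13a1 had counts in each of these mutants. The values of Lyve1 and Cbr2 thus do not show that such macrophages were absent. Of 18 cytokine, chemokine and interferon genes 7 were tested and 0 passed in either mutant by the same test. In each mutant 1 was higher at an unadjusted p below 0.05 (3.97% of all genes in the Islet1Cre mutants and 7.91% in the Dlx5/6::Cre mutants). In the Dlx5/6::Cre mutants 5 of the 7 had a log2 fold change above 0 (52.3% of all genes). The median was 0.36 and the values ran from −0.39 to 2.20. All 3 of these mutants lay above all 3 controls in 3 of the 7, against 9.71% of all genes. The DESeq2 Wald test called 1, Ccl3, in these mutants. Bst2, among the highest of the list, had a log2 fold change of 0.03 in them.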

How the data were processed

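RNA of the striatum of single E17.5 embryos (9 samples, 3 per genotype, separate embryos per the labels) was made into libraries from 400 ng of RNA and read as 75-base reads. The deposited values are raw counts per gene, which the authors made by aligning to mm10 with STAR 2.4.0k, removing multi-mapping reads and counting with HTSeq 0.5.3; the authors tested them with DESeq 1.8.3. The kit marks strand, but whether the counting used it is not given in the sources used here. Gene symbols, exon lengths and coordinates came from GENCODE M21 (44133 of 44886 identifiers matched).

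Counts were fitted for all 3 genotypes together with edgeR 4.0.16 in R 4.3.3 (TMM scaling, filterByExpr with a minimum count of 10, quasi-likelihood test), with Benjamini-Hochberg adjustment over 16368 genes and a threshold of 0.05. Replicate totals, 16548083 to 41507049 counts, set the precision, and intervals are 95%. Tests on simulated data (Islet1Cre against control, 16169 genes, 200 of them changed) recovered 73% of 2-fold and 99% of 4-fold changes, and 3.91% of the calls were false. The changed genes were drawn only from genes above a minimum mean level, which the tested members Cd53, Cd86, Ptprc and Mrc1 did not reach. The recovery thus does not cover these members. Alternatives were DESeq2 1.42.0 (Wald test and size factors), library totals only, no filter, a filter at 50 counts in 3 samples, the 6 samples of a comparison, the embryo code as a covariate, a replicate block, and leaving out each embryo. The genes, the lists and the rule for naming were chosen with earlier results of these data known. All 32 genes were named, with values per embryo for those that passed, that did not overlap the controls, or that were the 2 highest or 2 lowest of their group (all in groups of 4 or fewer). Of the other lists, genes that passed were named (up to 5 per list), or else the 2 highest. Clec7a and Lrrc33, an older name of Nrros, had no match. Figures and tables were made with Python 3.11.15, pandas 2.3.3 and matplotlib 3.10.9. Some genes of the other lists are not reported here.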

Additional observations from a re-analysis of the deposited data

How the results depend on the processing

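Of the single-gene results 1655 kept their side of the threshold, 51 lost and 10 gained a call, and 0 turned direction past the threshold. Direction was compared only where a call was made. Uncalled genes could change sign, as with Tyrobp in the Islet1Cre mutants (log2 fold change −0.22 to 0.66 over the alternatives). Members called between Dlx5/6::Cre mutants and controls numbered 1 with edgeR, 6 with the DESeq2 Wald test (Fcrls, C1qa, C1qb, C1qc, Ly86 and Laptm5), 4 with no filter on low counts (Fcrls, C1qb, C1qc and Ly86), 0 with the embryo code as a covariate and 0 to 2 when each embryo was left out. The median log2 fold change of the members stayed between 0.41 and 0.66. The Wald test and the fit with no filter were run on 32 members and 26563 genes, and the main fit on 27 and 16368. In both other comparisons 0 members passed under any alternative. Over all genes, calls between Dlx5/6::Cre mutants and controls numbered 392, and 857 with the Wald test, 708 with no filter, 181 with the 6 samples of the comparison, 32 with the embryo code and 143 to 613 with an embryo left out. Between Islet1Cre mutants and controls they numbered 159, and 394, 311, 259, 61 and 15 to 397 in the same order. Between the mutants they numbered 0, and 18, 13, 2, 1 and 0 to 4. The cause of these differences was not tested.

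Deviations from the group means were unrelated between embryos that share a replicate number (mean correlation −0.02, against 0.01 for different numbers), so the numbers were not taken as pairs. With a replicate block 363, 143 and 0 of all genes were called in the 3 comparisons and Fcrls kept its call (adjusted p = 0.0333, edgeR), while Nrros (0.0650) and Clic6 (0.0712) in the Dlx5/6::Cre mutants and Tgfb2 (0.0600) in the Islet1Cre mutants did not. Genes under about 50 counts a library, such as Tmem119, Cd86, Ptprc and Mrc1, had intervals over 1 wide on the log2 scale. So did better-counted members in the Dlx5/6::Cre mutants, such as Laptm5 (0.22 to 1.35), Trem2 (0.16 to 1.61) and Ly86 (0.48 to 1.83). Differences of 2-fold in all of these could go unseen here, and Ly86, at 2.23-fold, missed the edgeR threshold.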
